A study of Mus musculus with 24 samples.

Results

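GATA factors are zinc finger transcription factors that bind the DNA letters GATA, and FOG proteins are zinc finger cofactors that bind GATA factors and not DNA. The 7 genes described here are the members of these families that were listed by symbol: the transcription factor genes Gata1, Gata2, Gata3, Gata4 and Gata6, and the cofactor genes Zfpm1, which encodes FOG1, and Zfpm2, which encodes FOG2. They were followed by symbol through 24 polyA RNA-seq libraries of supporting cells, the somatic cells that nurse the germ cells, from fetal mouse gonads. The deposited tables hold 32040 genes, among them all 7, and all 7 were kept among the 16190 genes tested. They were named by symbol with no threshold on a measured value, and with earlier results of these data known.

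The libraries form 8 groups of 3, by sex and embryonic day. XX cells were pre-granulosa cells, the supporting cells of the fetal ovary, sorted from female embryos of the Tg(Enh8-mCherry) line at E11.5 and E12.5, and further at E13.5 and E15.5. XY cells were Sertoli cells, the supporting cells of the fetal testis, sorted from male embryos of the SOX9-IRES-GFP line at the same 4 stages. About 40000 sorted cells went into each RNA preparation. Sex, mouse line and fluorophore change together between the XX and XY groups, so that their parts in any XX minus XY difference cannot be told apart. Sox9 carries the reporter of the XY sort and is therefore no independent readout. One field of XX E13.5 replicate 1 gives its stage as E12.5, while its title and description give E13.5, where it was kept. The labels do not say whether replicates came from separate litters or sorts, so p-values measure the spread between these libraries, which may be technical.

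In the gonad, GATA4 acts with FOG2 in the genital ridge and is needed for the ridge to form and for Sry, the testis-determining gene of the Y chromosome, to be transcribed. GATA6 is its close relative and is known from granulosa cells. GATA1, GATA2 and GATA3 are best known from blood, where GATA1 and FOG1 work together in red cell and megakaryocyte precursors, GATA2 acts in blood stem cells and mast cells, and GATA3 directs T cells as well as kidney duct and sympathetic neurons. GATA1 is also a known Sertoli cell product of the later testis.

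Total counts ranged from 11275251 to 37256881 per library, and 3 counts, used here as the detection floor, correspond to 0.077 to 0.26 CPM, the unit of counts relative to the scaled total of the library. Marker lists matched the sort labels, but the Sertoli list holds Sox9, the reporter gene of the XY sort. The summed level of 7 Sertoli markers was 2019 to 8980 CPM in the XY group means and 65.4 to 202 in the XX means, and that of 7 pre-granulosa markers was 542 to 1187 CPM in XX and 3.91 to 67.4 in XY. Transcripts of other cells were also present in XX: 12 erythroid markers, mostly globins, summed to a mean of 17544 CPM at XX E11.5 (4446 to 34504 over the 3 libraries) and to 1348, 833 and 381 at the following stages, against 37.6, 40.5, 55.5 and 207 in XY.

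RefSeq upstream sequences (build GRCm38.p6, which is mm10) were given for 4 of the 7 genes, and 3 are printed to show how their starts differ in CpG content: that of Gata3, which separates XX from XY from E12.5 on, and those of the partners Gata1 and Zfpm1. Each is the 250 bases before a RefSeq transcription start, written 5′ to 3′ along the gene's strand, with CpG dinucleotides in capitals.
Gata3, chr2:9878601-9878850, minus strand: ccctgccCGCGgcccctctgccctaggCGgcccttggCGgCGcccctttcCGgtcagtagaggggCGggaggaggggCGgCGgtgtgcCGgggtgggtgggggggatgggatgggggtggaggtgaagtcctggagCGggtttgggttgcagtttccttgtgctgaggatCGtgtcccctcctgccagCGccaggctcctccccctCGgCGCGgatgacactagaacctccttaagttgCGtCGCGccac
Zfpm1, chr8:122281891-122282140, plus strand: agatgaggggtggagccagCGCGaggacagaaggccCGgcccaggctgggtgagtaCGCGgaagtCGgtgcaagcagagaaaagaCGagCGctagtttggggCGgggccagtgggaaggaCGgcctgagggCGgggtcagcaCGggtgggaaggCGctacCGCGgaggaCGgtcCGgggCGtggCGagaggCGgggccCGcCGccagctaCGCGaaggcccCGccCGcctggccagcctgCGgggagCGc
Gata1, chrX:7967911-7968160, minus strand: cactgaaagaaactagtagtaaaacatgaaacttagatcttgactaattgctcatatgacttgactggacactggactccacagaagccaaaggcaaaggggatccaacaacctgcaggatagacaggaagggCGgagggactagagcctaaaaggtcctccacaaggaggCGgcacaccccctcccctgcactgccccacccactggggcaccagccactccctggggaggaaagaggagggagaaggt
The Gata3 stretch holds 19 CpG dinucleotides and is 70.0% G or C, and the Zfpm1 stretch holds 28 and is 73.2% G or C. The Gata1 stretch holds only 2 CpG dinucleotides at 54.0% G or C. The Gata1 and Gata3 stretches lie inside their annotated genes (chrX:7959260-7978071 and chr2:9857078-9890034), so that each precedes the start of an internal transcript and not of the outermost one. Over all 32851 RefSeq promoter stretches of this length the median was 6 CpG dinucleotides, 29% held 2 or fewer and 19.7% held 19 or more. None of the GATA motifs searched on either strand (AGATAA as well as AGATAG, and likewise TGATAA as well as TGATAG) was found in the stretches of these 3 genes or in the pair given for Gata2 (22 and 24 CpG dinucleotides), while 26.5% of all stretches held at least 1. The NR5A1 motif CAAGGTCA (1.33% of all stretches) and the E-box CACGTG (6.02%) were not found in them either.

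Counts were compared with edgeR's quasi-likelihood test over all 24 libraries, with p-values adjusted over all genes tested and a call at an adjusted p under 0.05. At E11.5, 5 of the 7 genes were called between XX and XY, 4 higher in XX and 1 higher in XY, where 42% of all genes were called (21.4% higher in XX and 20.6% higher in XY). The count was 5 of 7 at E12.5 (3 higher in XX and 2 in XY), against 62.1% of all genes (30.5% and 31.5%). All 7 were called at E13.5 (3 higher in XX and 4 in XY), against 66.1% of all genes (32.8% and 33.3%). At E15.5 it was 6 of 7 (3 in each direction), against 69.4% (34.9% and 34.4%). So large a share of the transcriptome differed between these cells that the counts alone do not set the family apart. By direction, Gata6 was higher in XX and Zfpm2 higher in XY at each of the 4 stages, Gata1 was higher in XX throughout, Gata3 was higher in XX from E12.5, and Gata4 was higher in XY from E13.5. In bulk RNA, fewer cells that carry a transcript and less of it per cell cannot be told apart.

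**Figure D1:**
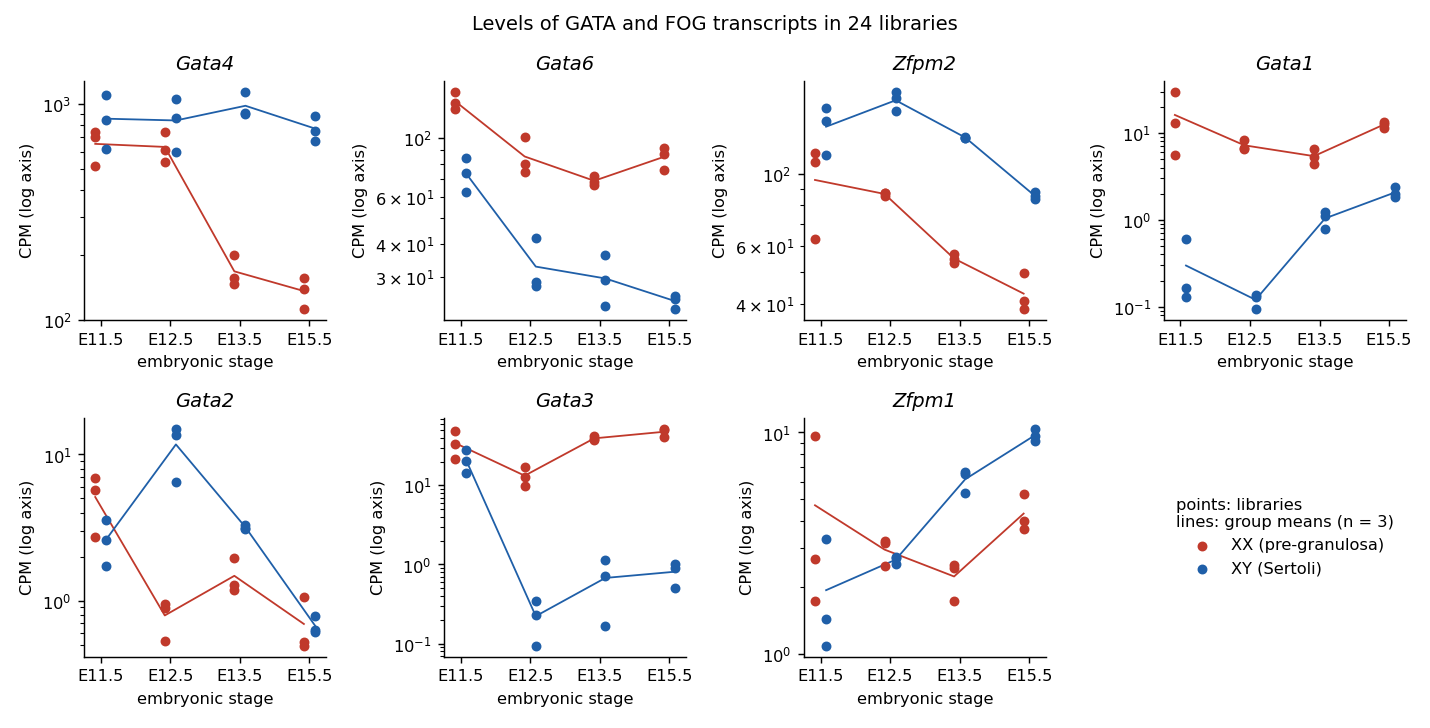
Level of each of the 7 genes in 24 libraries, in CPM on a log axis, against embryonic stage. Red points are XX and blue points XY libraries, and lines join the group means (n = 3). Gata4 separates the sexes from E13.5, Gata6 at all stages and Zfpm2 from E12.5 in the opposite direction, and the XY means of Gata3 are under 1 CPM after E11.5.

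Gata4, the GATA factor of the genital ridge, stood at a high level in XX and XY at E11.5 and E12.5 and then fell in XX. XX libraries measured 741, 514 and 699 CPM at E11.5, then 611, 743 and 538 at E12.5, next 200.1, 157 and 146 at E13.5 and lastly 139.6, 156 and 112 at E15.5. XY libraries measured 844, 1095 and 617 CPM at E11.5, then 598, 859 and 1050.4 at E12.5, next 898, 902 and 1133 at E13.5 and lastly 881, 672 and 747 at E15.5. The ranges of the sexes overlapped at the first pair of stages, and from E13.5 every XX library lay far below every XY library.

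The group means of Gata4 were 651 ± 121 and 852 ± 239 CPM (SD, n = 3) at E11.5 in XX and XY, and 168 ± 28.5 and 977 ± 135 at E13.5. On the log2 scale the XX minus XY difference was -0.39 (SE 0.21, edgeR adjusted p = 0.154) at E11.5 and -0.41 (SE 0.21, adjusted p = 0.105) at E12.5. It was -2.54 (SE 0.23, adjusted p = 4.23e-09) at E13.5 and -2.50 (SE 0.23, adjusted p = 4.45e-09) at E15.5. The earlier differences turned on 1 library each: without XY E11.5 replicate 3 the E11.5 difference was -0.56 (adjusted p = 0.048), and without XY E12.5 replicate 1 the E12.5 difference was -0.55 (adjusted p = 0.032). Within XX the fall came between E12.5 and E13.5, at -1.91 (SE 0.22, adjusted p = 4.98e-06), while XY showed no called change over the 4 stages (adjusted p = 0.482). The change over that step differed between XX and XY by -2.14 (SE 0.31, adjusted p = 5.86e-05).

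Gata6, the relative of Gata4, went the other way between the sexes. XX libraries measured 149, 128 and 135 CPM at E11.5, then 74.9, 79.9 and 101 at E12.5, next 66.7, 68.7 and 72.2 at E13.5 and lastly 87.4, 76.2 and 91.7 at E15.5. XY libraries measured 63.0, 73.7 and 84.1 CPM at E11.5, then 42.2, 27.7 and 28.9 at E12.5, next 23.4, 29.3 and 36.4 at E13.5 and lastly 25.6, 25.0 and 22.8 at E15.5. All XX libraries were above all XY libraries of their stage.

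The XX minus XY difference of Gata6 was 0.90 (SE 0.16, adjusted p = 0.000107) at E11.5, 1.37 (SE 0.16, adjusted p = 2.63e-07) at E12.5, 1.21 (SE 0.16, adjusted p = 1.27e-06) at E13.5 and 1.80 (SE 0.17, adjusted p = 4.39e-09) at E15.5. Both sexes dropped between E11.5 and E12.5, by -0.69 (adjusted p = 0.00225) in XX and by -1.16 (adjusted p = 3.88e-06) in XY, and these steps did not differ by the test of their difference (0.47, SE 0.22, adjusted p = 0.101). The XX step was no longer called when log2(TPM + 1) was tested with limma in place of counts (adjusted p = 0.0582). That limma fit called the next XX step, from E12.5 to E13.5, at -0.59 (adjusted p = 0.014). On counts edgeR gave that next step -0.30 (SE 0.16, adjusted p = 0.156), so that the timing of the XX fall depended on the scale. TPM is a relative unit that corrects for transcript length and so allows genes to be compared with each other.

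The makeup of the GATA transcript pool differed between the sexes. On the TPM scale the 5 GATA genes summed to 553 ± 140 at XX E11.5 and 164 ± 19.02 at XX E15.5, and to 618 ± 155 and 409 ± 53.3 in XY at those stages. Gata4 made up 90.0%, 94.4%, 96.2% and 96.1% of that sum in XY from E11.5 to E15.5. In XX its share was 79.9%, 85.2%, 63.6% and 50.8%, while Gata6 took 13.8%, 11.7%, 21.99% and 29.0% and Gata3 reached 13.0% at E15.5. Gata4 thus stayed the most abundant GATA transcript in every group mean, with mean TPM of 84.1 ± 18.2 at XX E15.5.

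The ratio of Gata4 to Gata6 on the TPM scale, with 1 TPM added to each, had geometric means of 5.76, 7.43, 2.85 and 1.74 in XX from E11.5 to E15.5 and of 12.3, 23.2, 30.5 and 28.1 in XY. The XX minus XY difference of its log2 was -1.09, -1.65, -3.42 and -4.01 at the 4 stages. Its mean over stages was -2.54, with a two-sided exact permutation p of 1.25e-05 when libraries were rearranged within stages, the smallest p that the 160000 arrangements allow. The ratio of Zfpm2 to Zfpm1, formed in the same way, was 10.6, 12.4, 8.09 and 4.73 in XX and 25.2, 22.8, 10.8 and 5.09 in XY. Its log2 difference was -1.25 and -0.88 at the first pair of stages and -0.66 on average (exact permutation p = 0.0001375). At the later stages its sign turned on the added TPM, because Zfpm1 was low: it was -0.42 and -0.10 with 1 TPM added, and 0.043 and 0.18 with nothing added, a setting chosen after the data were seen. The average with nothing added was -0.62 (exact permutation p = 0.0228). Over these 2 ratios the Benjamini-Hochberg adjusted values are 2.5e-05 and 0.0001375.

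**Figure D2:**
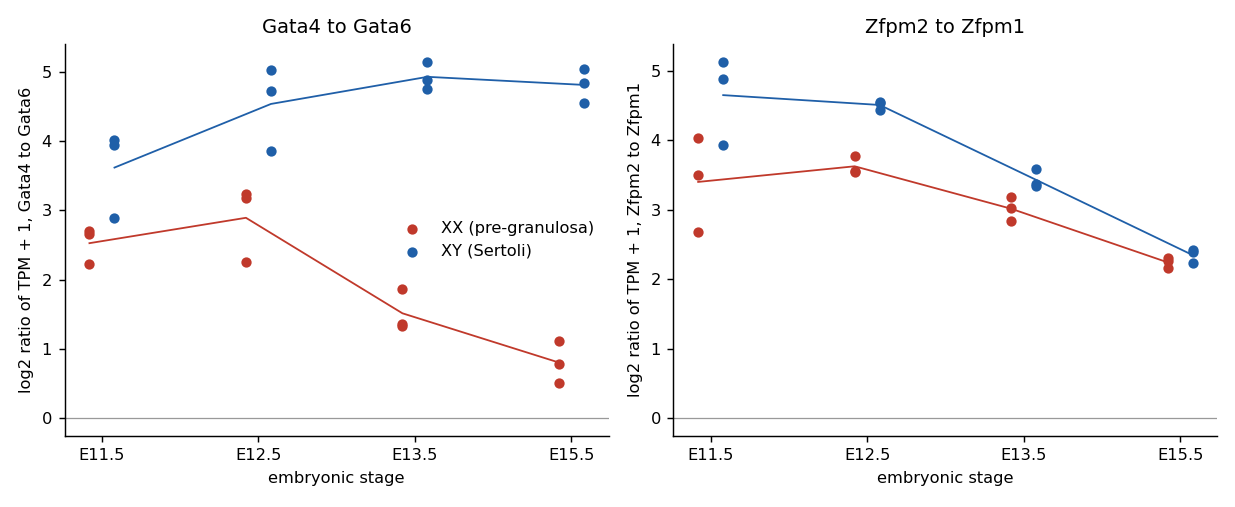
Log2 ratio of TPM + 1 for Gata4 to Gata6 (left) and Zfpm2 to Zfpm1 (right) in each library against embryonic stage. Red is XX, blue is XY, and lines join the means of 3 libraries. The Gata4 to Gata6 ratio moves apart with stage, to a difference of -4.01 at E15.5, while the Zfpm2 to Zfpm1 ratios lie close to each other at E13.5 and E15.5, where the sign of their difference depends on the added TPM.

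Zfpm2 encodes FOG2, the cofactor that binds GATA4 in the gonad and heart. XX libraries measured 109, 63.4 and 115 CPM at E11.5, then 87.2, 87.6 and 85.6 at E12.5, next 57.0, 53.5 and 54.7 at E13.5 and lastly 38.5, 49.7 and 40.8 at E15.5. XY libraries measured 158, 145 and 114 CPM at E11.5, then 155, 178 and 170.2 at E12.5, next 128.9, 129.6 and 128.8 at E13.5 and lastly 83.8, 87.8 and 85.4 at E15.5. At E11.5 the lowest XY library lay within the XX range, and from E12.5 the sexes did not overlap.

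Zfpm2 was lower in XX by -0.54 (SE 0.15, adjusted p = 0.00677) at E11.5, -0.95 (SE 0.15, adjusted p = 1.59e-05) at E12.5, -1.23 (SE 0.16, adjusted p = 5.6e-07) at E13.5 and -0.99 (SE 0.16, adjusted p = 8.49e-06) at E15.5. The E11.5 difference was not called in a fit restricted to the 6 E11.5 libraries (adjusted p = 0.156). In XX, Zfpm2 fell over the same step as Gata4, from E12.5 to E13.5, by -0.66 (SE 0.15, adjusted p = 0.00263). In XY the change over that step was -0.38 (SE 0.15, adjusted p = 0.094). It was called in a fit of only the libraries compared (adjusted p = 0.00508). From E13.5 to E15.5 the XY fall was called, at -0.59 (SE 0.15, adjusted p = 0.00751). None of the 3 steps of Zfpm2 differed between the sexes by the test of the difference, with adjusted p from 0.135 to 0.46. Over the 12 XX libraries, which share a sort and 4 stages, the log2 levels of Gata4 and Zfpm2 had a Pearson r of 0.93, and over the 12 XY libraries an r of 0.30.

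Gata3 was far higher in XX than in XY after E11.5. It encodes the GATA factor of T cells, kidney duct and sympathetic neurons. XX libraries measured 21.5, 33.1 and 48.3 CPM at E11.5, then 17.0, 12.9 and 9.89 at E12.5, next 42.2, 36.9 and 38.7 at E13.5 and lastly 52.2, 40.5 and 49.9 at E15.5. XY libraries measured 14.1, 20.3 and 27.7 CPM at E11.5, and then 0.093, 0.35 and 0.23 at E12.5, next 0.17, 0.72 and 1.14 at E13.5 and lastly 0.91, 0.51 and 1.01 at E15.5. The sexes overlapped at E11.5 and were far apart from E12.5, where the XY libraries held 2, 8 and 5 counts.

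The log2 XX minus XY difference of Gata3 was 0.73 (SE 0.30, adjusted p = 0.0576) at E11.5, and it was called by DESeq2 (adjusted p = 0.0464) and in 5 of 24 fits without 1 library, with the lowest adjusted p, 0.0129, without XX E11.5 replicate 1. It was 5.85 (SE 0.49, adjusted p = 1.93e-09) at E12.5, 5.75 (SE 0.41, adjusted p = 1.4e-10) at E13.5 and 5.86 (SE 0.42, adjusted p = 1.11e-10) at E15.5. The E13.5 value was 6.35 without XY E13.5 replicate 3. On log2(TPM + 1), a scale that understates the change of low genes, limma gave 2.83, 3.32 and 3.86 for these stages. With 0.1 TPM added it gave 5.15, 4.22 and 5.11, so that the size at E13.5 also depended on whether counts or TPM were used. Counts and TPM ranked the XY E13.5 libraries differently: replicate 1 held 3 counts at 0.98 TPM, and replicate 3 held 32 counts at 0.58 TPM. The separation arose from a fall of -6.49 (SE 0.48, adjusted p = 7.08e-10) in XY between E11.5 and E12.5. XX fell over the same step by -1.37 (SE 0.31, adjusted p = 0.00205) and then rose by 1.56 (SE 0.31, adjusted p = 0.000696) to E13.5. The E11.5 to E12.5 steps of XX and XY differed by 5.12 (SE 0.60, adjusted p = 9.92e-07). A gene on the same strand that overlaps Gata3, 9230102O04Rik, never exceeded 15.7 counts in a library. Gata3 itself held only 2 to 32 counts in the XY libraries from E12.5 on, and whether the 2 genes shared reads was not tested.

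Markers of other cells moved with Gata3 in part. The 6 surface epithelium markers, which include Upk3b and Krt19, summed to 92.7, 126, 372 and 562 CPM in XX from E11.5 to E15.5 and to 50.6, 16.9, 22.9 and 19.5 in XY, and all 6 were called higher in XX from E12.5 on, where 30.5% to 34.9% of all genes were. The 8 mesonephric duct and tubule markers summed to 59.9, 53.3, 35.7 and 26.7 CPM in XX and to 55.5, 7.59, 11.1 and 12.7 in XY; of these, Sim1 was at 0 in all XX libraries. The 6 sympathoadrenal markers summed to 118, 2.19, 15.9 and 0.31 CPM in XX and to 4.42, 1.60, 1.03 and 2.19 in XY. In XX all 6 fell over the step to E12.5 and 4 rose over the next one, the steps over which Gata3 fell and rose, and 4 fell to E15.5. Over those steps in turn, 17.3% of all genes were called lower, 14.2% higher and 12.8% lower. The 9 macrophage and immune markers summed to 312, 68.7, 54.4 and 41.7 CPM in XX and to no more than 1.84 in any XY mean. All 9 were called higher in XX at each stage, where 21.4% to 34.9% of all genes were. The 5 markers of steroid-making cells summed to 254, 87.2, 195 and 304 CPM in XX, falling and rising over the same steps as Gata3. In XY they summed to 301, 67.3, 86.7 and 77.9. The 6 interstitial cell markers summed to 416, 246, 242 and 175 CPM in XX and to 519, 115, 77.2 and 40.9 in XY. The part of these cells in the Gata3 result was not tested.

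Gata2, a factor of blood stem cells and mast cells, had a different course, with 1 transient peak in XY. XY libraries measured 1.74, 2.58 and 3.58 CPM at E11.5, rose to 6.44, 13.7 and 15.0 at E12.5 and then measured 3.32, 3.15 and 3.07 at E13.5 and lastly 0.61, 0.79 and 0.63 at E15.5. XX libraries measured 2.73, 5.69 and 6.94 CPM at E11.5, then 0.89, 0.95 and 0.53 at E12.5, next 1.19, 1.29 and 1.96 at E13.5 and lastly 0.52, 1.07 and 0.49 at E15.5. The sexes overlapped at E11.5 and E15.5 and did not at E12.5 and E13.5.

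For Gata2 the XX minus XY difference changed sign between stages. It was 0.95 (SE 0.35, adjusted p = 0.0342) at E11.5, -3.88 (SE 0.40, adjusted p = 3.8e-08) at E12.5, -1.11 (SE 0.39, adjusted p = 0.0149) at E13.5 and 0.03 (SE 0.48, adjusted p = 0.967) at E15.5. Only the E12.5 difference was called under every library left out and every alternative that kept Gata2 among the tested genes. The E11.5 difference lost its call without any 1 of 4 of the 6 libraries compared, namely XX E11.5 replicate 2 or 3 and XY E11.5 replicate 1 or 2 (0.66 to 0.92, adjusted p from 0.0835 to 0.166), in a fit of the E11.5 libraries alone (adjusted p = 0.181) and in the 3 limma fits of TPM (adjusted p from 0.165 to 0.221). The E13.5 difference lost its call without XX E13.5 replicate 1, whose stage field disagrees (adjusted p = 0.0562), or replicate 2 (-0.95, adjusted p = 0.0774). The XY steps were 2.15 (SE 0.35, adjusted p = 3.14e-05), -1.88 (SE 0.35, adjusted p = 0.000911) and -2.23 (SE 0.41, adjusted p = 0.000498). XX fell by -2.68 (SE 0.40, adjusted p = 5.38e-05) from E11.5 to E12.5, so that the steps of XX and XY differed by -4.83 (SE 0.53, adjusted p = 3.97e-07) there and by 2.76 (SE 0.55, adjusted p = 0.000933) from E12.5 to E13.5.

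At XY E12.5, the stage of the Gata2 peak, the 6 sympathoadrenal markers summed to 1.60 CPM (4.42 at E11.5 and 1.03 at E13.5). The 7 megakaryocyte and mast cell markers summed to 0.42 (4.24 and 1.41), with Cpa3 and Mcpt4 at 0. The 8 endothelial markers summed to 17.2 (20.6 and 20.1), and the 12 erythroid markers to 40.5 (37.6 and 55.5). The 9 macrophage and immune markers summed to 1.62 (1.84 and 0.89), with C1qa, C1qb and C1qc at 0. In XX several sums were highest at E11.5, where Gata2 was highest in XX. The sympathoadrenal sum was 118 CPM there (59.0 to 214) and the erythroid sum 17544. The macrophage and immune sum was 312 CPM and the megakaryocyte and mast cell sum 16.4. The endothelial sum was lowest in XX at that stage, at 27.1 CPM. The part of these cells in the XX and XY levels of Gata2 was not tested.

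**Figure D3:**
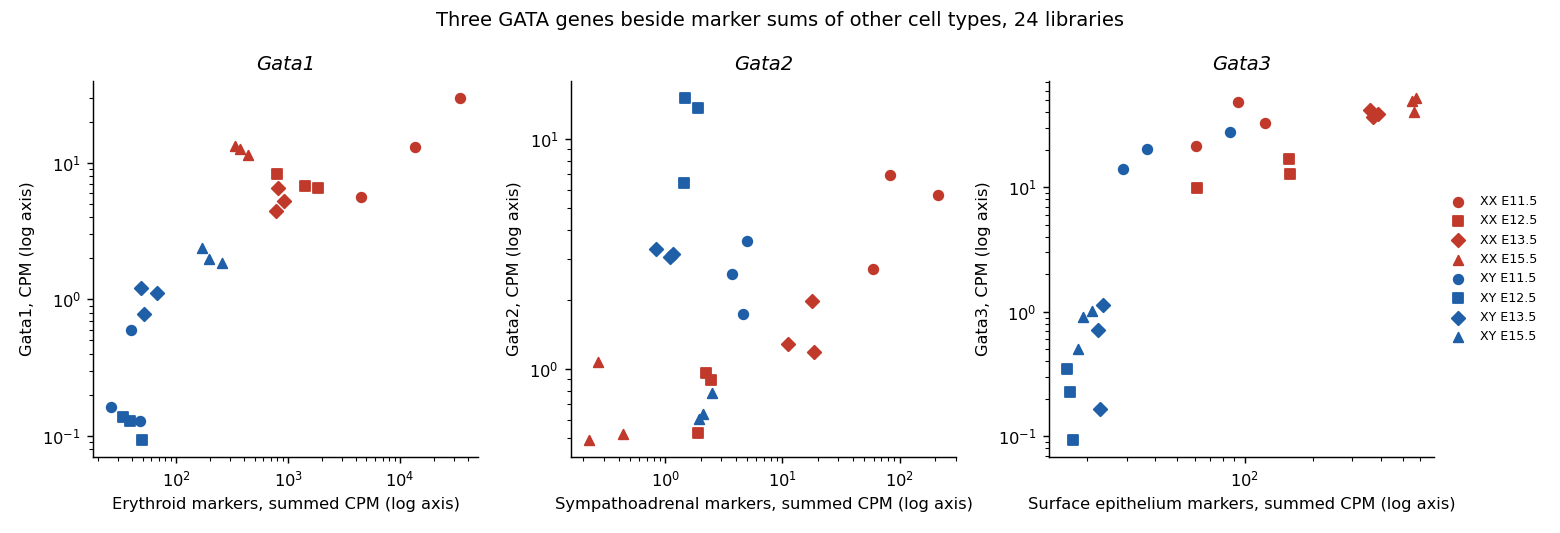
Gata1, Gata2 and Gata3 in CPM against the summed CPM of erythroid, sympathoadrenal and surface epithelium markers in the same library (both axes log). Colours give sex, shapes give stage, and each point is 1 of 24 libraries. Gata1 is high where erythroid markers are high among the youngest XX libraries, and the XY E12.5 peak of Gata2 sits at sympathoadrenal sums near 1.60.

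Gata1, the erythroid GATA factor, was higher in XX at each stage, at levels far below those of Gata4. XX libraries measured 13.0, 5.64 and 29.8 CPM at E11.5, then 6.80, 6.50 and 8.35 at E12.5, next 4.44, 5.23 and 6.57 at E13.5 and lastly 13.3, 12.7 and 11.4 at E15.5. XY libraries measured 0.16, 0.13 and 0.60 CPM at E11.5, 1.22, 1.12 and 0.79 at E13.5 and lastly 2.39, 1.96 and 1.84 at E15.5. At E12.5 they held 2, 3 and 3 counts, which is at or under the floor. No XX library overlapped an XY library of its stage.

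The XX minus XY difference of Gata1 was 5.72 (SE 0.52, adjusted p = 2.2e-08) at E11.5, 2.39 (SE 0.46, adjusted p = 0.000124) at E13.5 and 2.58 (SE 0.44, adjusted p = 2.35e-05) at E15.5. Its E12.5 level in XX was at least 53.2-fold higher than in XY, measured against the floor of 3 counts per library (adjusted p = 5.53e-08). In XY, Gata1 was at least 7.67-fold higher at E13.5 than at E12.5 (adjusted p = 0.00493). For that step limma on log2(TPM + 1) gave 0.79 with no call (adjusted p = 0.118, and 0.205 on all genes). With 0.1 TPM added limma called it (2.08, adjusted p = 0.00346). That step differed between XX and XY by a fitted -3.45 (adjusted p = 0.00398), a value that depends on the XY E12.5 counts at the floor. XX E11.5 replicate 3 set much of the spread: without it the XX E11.5 mean was 9.34 CPM in place of 16.1, and the difference at E11.5 was 4.93. XY E11.5 replicate 3 moved it the other way: without that library the XY E11.5 mean was 0.146 CPM in place of 0.298, and the difference was 6.74. The XX fall over the step to E12.5 (-1.15, adjusted p = 0.0301) was -0.36 (adjusted p = 0.466) without XX E11.5 replicate 3, and it lost its call also without XX E12.5 replicate 1 or 2 (adjusted p = 0.0851 and 0.0850).

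Erythroid markers and, at low levels, markers of a joint megakaryocyte and mast cell list were detected beside Gata1. Among the 3 XX E11.5 libraries, replicate 3 had the highest erythroid sum (34504 CPM) and the highest Gata1. From E13.5 to E15.5 Gata1 rose in XX from 5.41 ± 1.07 to 12.46 ± 0.93 CPM (1.20, SE 0.41, adjusted p = 0.0356). Over that step the XX erythroid sum, mostly globin, went from 833 to 381 CPM. Of the 12 markers 2 were called higher and 2 lower, near the 12.8% of all genes called in each direction. Their median log2 change was 0.31 (0 over all genes). Klf1, an erythroid factor that acts with GATA1, measured 35.9, 1.19, 1.71 and 6.75 CPM in XX from E11.5 to E15.5. The 7 megakaryocyte and mast cell markers summed to 16.4, 4.05, 9.32 and 11.2 CPM in XX and to 4.24, 0.42, 1.41 and 0.68 in XY. Only in XX E11.5 replicate 3 did any of them reach 10 CPM (1 of the 7). Their sum was highest in XX E11.5 replicate 3 (25.5 CPM) and, among XY libraries, in XY E11.5 replicate 3 (10.8 CPM), the libraries with the highest Gata1 of their groups. The part of these cells in the Gata1 levels was not tested. The call of that XX rise was lost without any 1 of the 6 libraries it compares, with adjusted p from 0.0533 to 0.127, and also with no filter on low counts (adjusted p = 0.0511).

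Zfpm1 encodes FOG1, the partner of GATA1 in blood, and it was higher in XY from E13.5. XX libraries measured 2.67, 1.74 and 9.66 CPM at E11.5, then 2.49, 3.23 and 3.16 at E12.5, next 2.44, 2.53 and 1.74 at E13.5 and lastly 3.99, 5.26 and 3.65 at E15.5. XY libraries measured 1.09, 1.45 and 3.29 CPM at E11.5, then 2.71, 2.54 and 2.74 at E12.5, next 5.31, 6.50 and 6.65 at E13.5 and lastly 10.4, 9.60 and 9.11 at E15.5. The sexes overlapped at E11.5 and E12.5, and at E13.5 and E15.5 all XY libraries were above all XX libraries.

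The XX minus XY difference of Zfpm1 was 1.25 (SE 0.44, adjusted p = 0.0263) at E11.5, 0.15 (SE 0.44, adjusted p = 0.788) at E12.5, -1.45 (SE 0.45, adjusted p = 0.0073) at E13.5 and -1.18 (SE 0.43, adjusted p = 0.0193) at E15.5. The E11.5 difference was 0.16 (adjusted p = 0.739) without XX E11.5 replicate 3, the library richest in erythroid RNA. It also lost its call without XY E11.5 replicate 1 (0.95, adjusted p = 0.128) or replicate 2 (1.06, adjusted p = 0.101), in a fit of the E11.5 libraries alone (adjusted p = 0.272) and in the 3 limma fits of TPM, and it was 1.87 (adjusted p = 0.00315) without XY E11.5 replicate 3. The E15.5 difference was not called without XX E15.5 replicate 1 (-1.13, adjusted p = 0.0542) or replicate 3 (-1.07, adjusted p = 0.0711). Over the 4 stages Zfpm1 changed in XY (adjusted p = 0.000198) and was not called in XX (adjusted p = 0.137). Over 12 XX libraries the log2 levels of Gata1 and Zfpm1 had an r of 0.86, and over 12 XY libraries an r of 0.93, while over all 24 the r was 0.17.

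**Figure D4:**
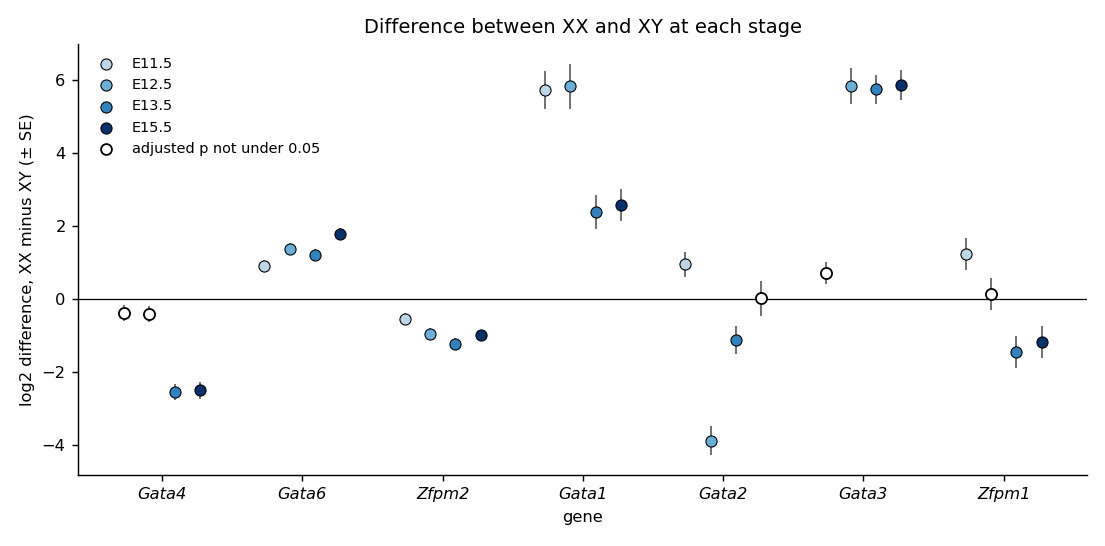
Log2 XX minus XY difference of each gene at 4 stages from edgeR, with bars of 1 SE and open circles where the adjusted p was not under 0.05. Values above 0 are higher in XX. Gata6 and Gata1 lie above 0 and Zfpm2 below it at all stages, while Gata2 and Zfpm1 change sign. The Gata1 value at E12.5 rests on XY counts at the floor.

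Ordered by mean CPM, Gata4 ran from XY E13.5 through XY E11.5, XY E12.5, XY E15.5 and XX E11.5 to XX E12.5 with the ranges of neighbours overlapping, and only then came XX E13.5 and XX E15.5, which overlapped each other and no group above them. For Gata6 the order was XX E11.5, alone at the top, then XX E12.5, XX E15.5, XY E11.5 and XX E13.5, each overlapping the next, and apart from these XY E12.5, XY E13.5 and XY E15.5. For Zfpm2 the 3 younger XY groups came first, then XX E11.5, XX E12.5 and XY E15.5, whose ranges overlapped, then XX E13.5 and last XX E15.5. Gata3 put the 4 XX groups and XY E11.5 together at the top and the 3 later XY groups, which overlapped each other, at the bottom. Gata1 put all XX groups above all XY groups, Gata2 put XY E12.5 first and the E15.5 groups of both sexes last, and Zfpm1 put XY E15.5 first and XY E11.5 last.

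Read by stage, the steps in XX were mostly falls. From E11.5 to E12.5, 4 of the 7 genes fell in XX (Gata1, Gata2, Gata3 and Gata6) and none rose, where 34% of all genes were called, 16.7% rising and 17.3% falling. The next XX step, to E13.5, had 3 calls, Gata4 and Zfpm2 lower and Gata3 higher, where 31.7% of all genes were called (17.4% lower and 14.2% higher). The last XX step, to E15.5, had only Gata1, which was higher, where 25.6% were called (12.8% in each direction). In XY the step to E12.5 had 3 calls, Gata3 and Gata6 lower and Gata2 higher, against 51.9% of all genes (24.8% lower and 27.1% higher). The XY step to E13.5 had 2, Gata1 higher and Gata2 lower, against 16.6% (8.02% higher and 8.62% lower), and the XY step to E15.5 had 2, Gata2 and Zfpm2 lower, against 21.3% (9.79% lower).

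A change somewhere over the 4 stages was called for 6 of 7 genes in XX, all but Zfpm1, and for 6 of 7 in XY, all but Gata4, against 74% and 70.3% of all genes. The dependence of the XX minus XY difference on stage was called for all 7, against 70.1% of all genes, with adjusted p from 2.84e-08 for Gata3 to 0.0476 for Zfpm2. The Zfpm2 call was lost in 29 of the 32 alternative fits, with adjusted p up to 0.198. For the steps themselves, the sexes differed in 2 of 7 genes over the step to E12.5, where 40.1% of all genes were called (19.6% with the XX change above the XY change and 20.5% below). Over the step to E13.5 they differed in 3, Gata1, Gata2 and Gata4 (25.2% of all genes, 11.3% above and 13.8% below), and over the step to E15.5 in 0 (25.8% of all genes), where edgeR gave the lowest adjusted p, 0.0654, to Gata6, the 1 member with an unadjusted p under 0.05.

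For Gata4 the deposited counts and TPM differed in scale between the sexes. The ratio of a gene's count to its TPM follows the length of the transcripts assigned to it, and for Gata4 the log2 of this ratio, centred on all genes of the library and on the gene's own mean, was -0.13, -0.01, -0.18 and -0.14 in XX from E11.5 to E15.5 and -0.02, 0.12, 0.19 and 0.17 in XY. The XX minus XY shift was -0.23 (exact permutation p = 1.25e-05, the smallest the arrangements allow), and its size was above that of 95.7% of the 8485 genes measured in this way. The adjusted value over the 3 genes compared in this way is 3.75e-05. Gata6 had a shift of -0.05 (exact permutation p = 0.195) and Zfpm2 one of 0.01 (exact permutation p = 0.0002875, adjusted 0.00043), whose size was above that of 34.2% of the genes. The comparison was added after the data were seen, and which Gata4 transcripts the reads came from was not tested. TPM put Gata4 lower in XX as the counts did, at 105 and 84.1 in XX and at 492 and 393 in XY at E13.5 and E15.5.

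**Figure D5:**
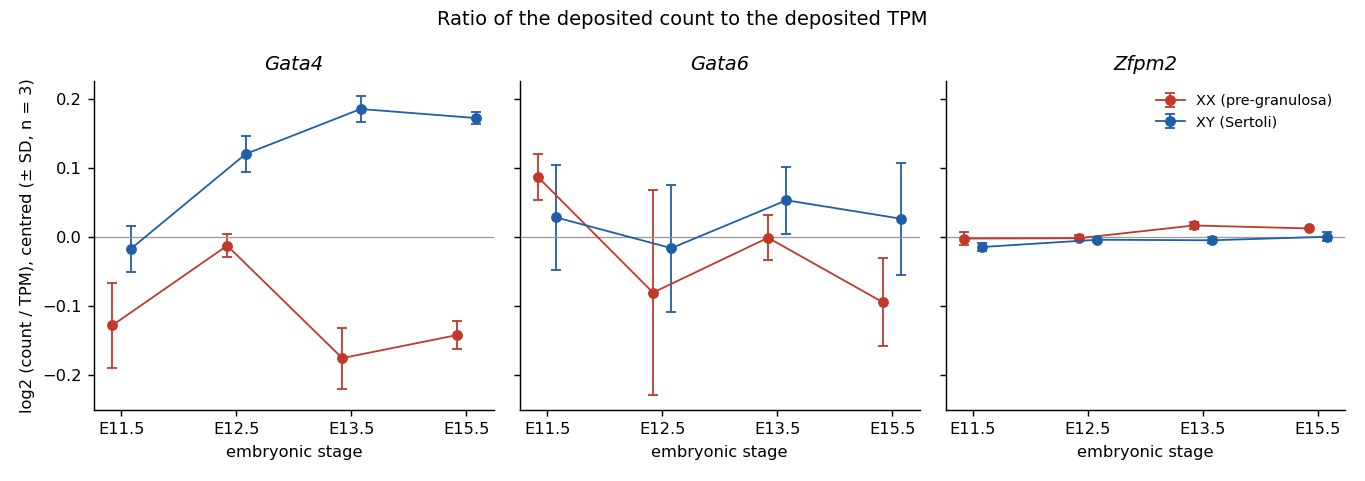
Log2 ratio of deposited count to deposited TPM, centred per library and per gene, for Gata4, Gata6 and Zfpm2 against embryonic stage (mean ± SD, n = 3). Red is XX and blue is XY. For Gata4 the XX means lie below the XY means at all stages, by -0.23 on average, while for Zfpm2 the average difference is 0.01.

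Gata5, the GATA family gene outside the 7, was low: its mean went from 6.17 CPM at E11.5 to 0.52 at E15.5 in XX and from 6.42 to 0.11 in XY. It was called between the sexes at E15.5 only (edgeR adjusted p = 0.036), where the XX mean was at least 3.22-fold higher than the floor of 3 counts per XY library. The XX E15.5 libraries held from 2 to 13 counts, so that they too reached under that floor. Of 9 tested genes that carry a GATA-type zinc finger, Gata5 included, 5 were called at E11.5, 5 at E12.5 and 7 at each later stage. Trps1, a GATA-type repressor, was higher in XX by 1.35 at E12.5 (adjusted p = 5.65e-08). Of all genes, 42%, 62.1%, 66.1% and 69.4% were called from E11.5 to E15.5. The 5 calls of the zinc finger list at E11.5 were all higher in XX, against 21.4% of all genes. With so few genes, these counts alone do not set the list apart. Its genes Mta1, Mta2, Mta3, Gatad2a and Gatad2b are also among the FOG corepressors counted below.

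Among proteins that bind GATA4 or act beside it in the gonad, 5 of 8 tested genes were called at E11.5, and 5, 6 and 7 at the later stages in turn, against 42%, 62.1%, 66.1% and 69.4% of all genes, which is near the list's own share at E12.5. Sox9, the reporter gene of the XY sort, is in this list. Nr5a1, which encodes the nuclear receptor SF1 that acts with GATA4 on Amh, was lower in XX at all stages, from -1.32 (adjusted p = 3.47e-06) at E11.5 to -2.29 (adjusted p = 3.87e-10) at E15.5. Lhx9 and Emx2, homeobox genes of the early gonad, were higher in XX at all stages, by 6.98 and 2.96 at E13.5. Wt1, a zinc finger gene needed for the gonad to form, was within 0.48 of equal at each stage and was called lower in XX at E11.5 and E15.5. In the kinase path that acts on GATA4 at Sry, 4 of 5 genes were called at each stage, against those same shares of all genes. Its kinase gene Map3k4 was lower in XX by -0.40 (adjusted p = 0.0377) at E11.5 and by -1.98 (adjusted p = 3.61e-10) at E15.5, and its activator Gadd45g was higher in XX by 0.93 (adjusted p = 0.000239) at E11.5.

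Genes with GATA sites in their promoters, or known to need GATA4 or FOG2 in gonads, were called in 19, 21, 23 and 18 of 23 tested from the youngest stage to the oldest, with 9 higher and 10 lower in XX at E11.5 and 12 and 11 at E13.5, where 42%, 62.1%, 66.1% and 69.4% of all genes were called. The median log2 difference over them was -0.05, 0.07, 1.0004 and -0.05 at the 4 stages, against -0.01 to 0.05 over all genes. Their list was drawn up with results of these data known, and it holds genes of either sex and Sox9, the reporter gene of the XY sort. Amh, the Sertoli cell hormone, was lower in XX by -12.20 at E12.5 (adjusted p = 1.83e-12), and Inhbb, an inhibin and activin subunit, by -2.73 at E13.5 (adjusted p = 1.73e-12). Fst, the activin antagonist of the ovary, was higher in XX by 10.80 at E13.5 (adjusted p = 3.11e-11). Of the 14 corepressor genes whose proteins bind FOG, 8 passed at E11.5, of which 7 were on the XX side, and 11, 10 and 10 at the later stages. Of all genes, 42% were called at E11.5 (21.4% on the XX side) and 62.1%, 66.1% and 69.4% at the later stages. The counts at E13.5 and E15.5 lie near their shares, and that at E12.5 lies above its share. Rbbp4, a histone-binding subunit of the NuRD complex, was lower in XX by -0.88 (adjusted p = 7.37e-08) at E12.5.

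The genes whose log2 CPM followed each member most closely were named from 11166 genes over the 24 libraries, as a description without a test, since the libraries share 2 sorts and 4 stages. Gata4 was followed by Plcg1 (r = 0.98), Sh2b1 and Rgl2, and was most opposite to Dctn6 (r = -0.96). Gata6 was followed by Pbx2 (r = 0.98), and Zfpm2 by Hipk2 (r = 0.96) and Gpc6. Gata3 was followed by Pros1 (r = 0.98) and Tspan12, and Gata2 by Ckb (r = 0.90). Gata1 was followed by Hba-a1, an alpha globin (r = 0.92), and the lysosomal protease gene Ctss (r = 0.92), and was most opposite to Psat1 (r = -0.98) and Phgdh, enzymes of serine synthesis. Zfpm1 was below the level at which such genes were named.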

How the data were processed

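Poly(A) RNA from sorted gonadal supporting cells was measured in 24 libraries, 3 for each of 8 groups of sex and stage. The authors deposited a table of estimated counts of reads per gene, of which 17.5% were not whole and were rounded, and a table of TPM. Reads were placed on mm10, per the submitters' processing notes, and the aligner and counter are not given in the sources used here. Libraries were grouped by the description in the labels.

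Counts were scaled by TMM, filtered with filterByExpr and fitted with edgeR 4.0.16 (R 4.3.3) as 8 group means over all libraries, with the robust quasi-likelihood test (16 residual degrees of freedom, common biological coefficient of variation 17.4%) and Benjamini-Hochberg adjustment over 16190 genes. CPM values use the TMM-scaled library sizes. The SE of a log2 difference is its size divided by the square root of F. The deposited TPM served for comparisons between genes, with 1 TPM added before taking logs, and for limma 3.58.1 as an alternative; ratios were compared by exact permutation within stages. DESeq2 1.42.0, other scalings and filters, the replicate block, fits of only the libraries compared, and fits without each library in turn were the other alternatives. Counts gave depths of 11275251 to 37256881 per library. The floors cover counting error only, while SDs and SEs include the spread between libraries.

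The fitting code was tested on simulated counts. All 7 genes are named, as are genes of the lists, and for each member of at least 10 CPM in a group mean the 3 genes of highest and of lowest Pearson correlation were found, of which some are printed. The members and lists were chosen with earlier results of these data known. Reads of overlapping or near-identical genes could be shared in ways the sources used here do not describe.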

Additional observations from a re-analysis of the deposited data

Results flagged for a closer look

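By the interaction test of edgeR the XX minus XY difference changed with stage for all 7 genes, though for Zfpm2 the call was lost in 29 of 32 alternative fits. The adjusted p was 0.000129 for Gata1, 1.01e-06 for Gata2, 2.84e-08 for Gata3, 6.7e-07 for Gata4, 0.0114 for Gata6, 0.00207 for Zfpm1 and 0.0476 for Zfpm2. No step from one stage to the next was called different between the sexes for Zfpm2.

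In 5 cases a stage-to-stage change differed between XX and XY. From E11.5 to E12.5 the log2 change in XX was below that in XY by -4.83 for Gata2 and above it by 5.12 for Gata3. From E12.5 to E13.5 the XX change minus the XY change was -3.45 for Gata1, where XY E12.5 was at the floor, 2.76 for Gata2 and -2.14 for Gata4. Explanations for these differences were not tested.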

How the results depend on the processing

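Of the values for single genes, 2101 kept their direction and call when 1 library was left out, 45 lost their call, 25 gained one and 13 changed sign; under the other alternatives the numbers were 720, 29, 18 and 4. The causes were not tested, except that the filter of 10 counts in every library left only 4 of the 7 genes to test. Under that filter the number called was 3 at E11.5, 2 at E12.5 and 4 at E13.5 between XX and XY, 1 over the XX step to E12.5, 0 in XX from E13.5 to E15.5, 1 in each XY step, and 3 in each of the tests across stages in XX, across stages in XY and of the interaction. The 3 limma fits of TPM called 3 genes at E11.5 and 2 over the XX step to E12.5. In XX from E13.5 to E15.5, no gene was called without a filter (0), nor by limma with 0.1 TPM added (0) or on all genes (0), and limma on all genes called 1 in XY from E12.5 to E13.5. Fits of only the libraries compared called 2 at E11.5, 5 in XX from E13.5 to E15.5, 4 in XY from E12.5 to E13.5 and 4 in XY from E13.5 to E15.5, and DESeq2 called 4 in XY from E12.5 to E13.5. With 1 library left out, the count ranged from 3 to 7 at E11.5, from 0 to 2 in XX from E13.5 to E15.5 and from 2 to 4 in XY from E12.5 to E13.5. The Gata4 to Gata6 ratio difference ranged from -2.63 to -2.46 and the Zfpm2 to Zfpm1 one from -0.75 to -0.57. With 0.1 TPM, 5 TPM or nothing added they were -2.59, -2.35 and -2.60, and -0.62, -0.67 and -0.62; the last setting was chosen after seeing the data.

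Replicate numbers were taken as unpaired: over 84 pairs of same-numbered libraries the correlation of deviations ran from -0.098 to 0.28, with 3 above 0.1, and 12 of 24 libraries were closest to their own number. With the replicate number as a block, 2 genes were called in XX from E13.5 to E15.5 in place of 1, and Gata2 at E15.5 was -0.034.

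All sign changes were in differences that were not called. With 1 library left out, Gata2 at E15.5 ranged from -0.34 to 0.27. Over the XX step to E12.5, Gata4 ranged from -0.21 to 0.057, Zfpm1 from -1.05 to 0.43 and Zfpm2 from -0.37 to 0.019; the highest value of each of the last pair was without XX E11.5 replicate 3. Over the XY step to E12.5 Gata4 ranged from -0.30 to 0.13, over the XY step to E13.5 Gata6 ranged from -0.29 to 0.083, and over the XY step to E15.5 Gata3 ranged from -0.23 to 0.75. Gata3 over that step was -0.28 in both limma fits with 1 TPM added and -0.62 with 0.1 TPM. Depth limits Gata1 and Gata3 in XY, where libraries held as few as 2 counts.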
